A study of Mus musculus with 18 samples.

Results

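The comparison described here is that of macrophages given lipopolysaccharide (LPS) for 4 h with untreated macrophages, in cells that had never met a nanoparticle. It takes 6 of the 18 arrays of the series, namely the 3 labelled LPS and the 3 labelled CON, and all 12393 genes with a probe set of their own, each read from its brightest probe set by the mean of all 18 arrays. The series as a whole asked whether silica or iron oxide (SPIO) nanoparticles change the activation of macrophages, and 4 further groups of 3 arrays carry those particles with or without LPS. Macrophages of both groups came from the femoral bone marrow of C57BL/6 mice aged 4 to 6 weeks, grown in medium with 10% fetal bovine serum and 20% medium conditioned by L929 cells, a mouse fibroblast line that secretes the macrophage growth factor CSF1. The adherent cells were plated again without conditioned medium, and the mock treatment for the particles was 24 h in plain medium. This step is recorded for the LPS samples and left blank for CON, so any difference in handling cannot be told apart from LPS. Cells were then washed and received fresh medium, alone for CON or with 10 ng/ml of LPS from Escherichia coli O111:B4 for the LPS group. Each group is labelled as 3 biological replicates, with no word on animals or pools, so a p-value here reflects only how far these samples varied.

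LPS is the outer membrane glycolipid of Gram-negative bacteria. It is handed by CD14 to the receptor TLR4 with its partner MD-2, and from there one adaptor branch through MyD88 drives NF-kB, MAP kinases and the genes of cytokines, while another through TRIF activates IRF3 and type I interferon, which acts back on the cells through JAK and STAT proteins. Macrophages answer within hours with secreted cytokines and chemokines, antiviral proteins, a change of metabolism and a set of inhibitors that limit the response.

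Signals are RMA values on the log2 scale, so a difference of 1 is a 2-fold change. The correlation between arrays over all probe sets was 0.9971 to 0.9983 within a group and 0.9536 to 0.9569 between LPS and CON. Medians of the arrays were 6.35 to 6.39 in CON and 6.23 to 6.27 in LPS. The log2 difference between the 3′ and 5′ control probe sets, a sign of RNA integrity, was 0.69 ± 0.039 (SD, n = 3) in CON and 0.52 ± 0.050 in LPS for Gapdh, and 0.59 ± 0.017 and 0.38 ± 0.053 for Actb. Defining macrophage markers were bright in both groups, with Csf1r at 13.92, 13.93 and 13.91 in the CON arrays and 13.67, 13.69 and 13.71 in the LPS arrays and with Lyz2, Cd68 and Adgre1 also bright, and the summed signal of 12 macrophage markers was 16.25 to 16.26 in CON and 16.34 to 16.35 in LPS. Of these 12 markers 4 rose, among them Fcgr1 (2.03), Spi1 (1.66) and Cd14 (1.56), and 7 fell (5 and 4 under cyclic loess). Markers of fibroblasts were also bright in part, Col1a2, Acta2 and Fn1 included, with a sum over 15 markers of 15.57 to 15.62 in CON and 15.25 to 15.33 in LPS. Of these markers 4 rose and 9 fell, and a second probe set of Acta2 differed in sign from the main one. Markers of neutrophils (13 measured) summed to 14.47 to 14.56 and 14.59 to 14.62. Summed signals went from 9.94 to 10.0 in CON to 10.81 to 10.98 in LPS for 6 osteoclast markers and from 7.28 to 7.31 to 8.14 to 8.22 for 8 of mast cells and basophils. They went from 10.65 to 10.76 to 10.06 to 10.12 for 8 of B cells and from 10.71 to 10.82 to 10.54 to 10.6 for 7 of erythroid cells. The 8 markers measured of T and NK cells lay at 5.84 or below in both groups and the 8 of dendritic cells at 6.82 or below. Such sums weigh bright genes most. Of the osteoclast markers 3 rose, Acp5 most (2.50), and 2 fell. For mast cells and basophils 2 rose, Hdc most (2.12), and 6 were not called. Among B cell markers 3 fell, Blnk most (-0.72), and 5 were not called. Erythroid markers had 2 rises, Car2 the larger (2.40), and 1 fall, that of the bright Tfrc (-0.46). Neutrophil markers had 4 rises and 5 falls (5 and 3 under cyclic loess). The part of these other cells in the results was not tested, and in bulk RNA a smaller number of cells of a type and less RNA per cell cannot be told apart.

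LPS changed the signal of most genes. At an adjusted p below 0.05 (limma, Benjamini-Hochberg over all genes) 7216 genes were called, which is 58.2% of those tested. Of these 2747 were higher (22.2%) and 4469 lower (36.1%), and the median over all genes was -0.01. In the text a gene is said to rise or fall only where it was called, and values after ± are the standard errors of the log2 difference in that model, with n = 3 arrays per group. The arrays of both groups did not overlap for 7841 genes (63.3%). A change of at least 2-fold was called upwards for 651 genes (5.25%) and downwards for 762 (6.15%). These counts were 759 and 583 under cyclic loess, a normalization between arrays, 661 and 647 with the second-brightest probe set of each gene and 637 and 615 with the mean of its probe sets, so which direction held more of them depended on the setting.

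Large changes were lopsided. At 4-fold or more 279 genes were higher and 112 lower, at 16-fold or more 71 and 5, and at 64-fold or more 21 and 0. The direction of small changes varied with the signal level. Among the dimmest 4131 genes 701 rose and 247 fell, whereas among the brightest 4131 genes 1234 rose and 2238 fell, and the median differences were 0.10 and -0.19. The slope was smaller on another scale. After a cyclic loess adjustment of the arrays to each other, 3272 genes rose and 3620 fell, so that 47.5% of calls were upwards in place of 38.1%, and the medians of the dimmest and the brightest genes were 0.03 and -0.01. For gene lists whose median or larger direction turns under that adjustment both values are given below. The count of any list is to be read against the shares over all genes, 22.2% higher and 36.1% lower, and against genes of like signal. Among the brightest 4131 genes 29.9% were higher and 54.2% lower. The shares were 19.7% and 48.0% for the 4131 of middle signal and 17.0% and 6.0% for the dimmest. Falls of endoplasmic reticulum chaperones (53.3%), NRF2 genes of oxidant defence (52.9%) and cathepsins with their inhibitors (60.0%) lay near the share of the brightest genes. Those of the respiratory chain (90.9%) lay well above it.

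**Figure D1:**
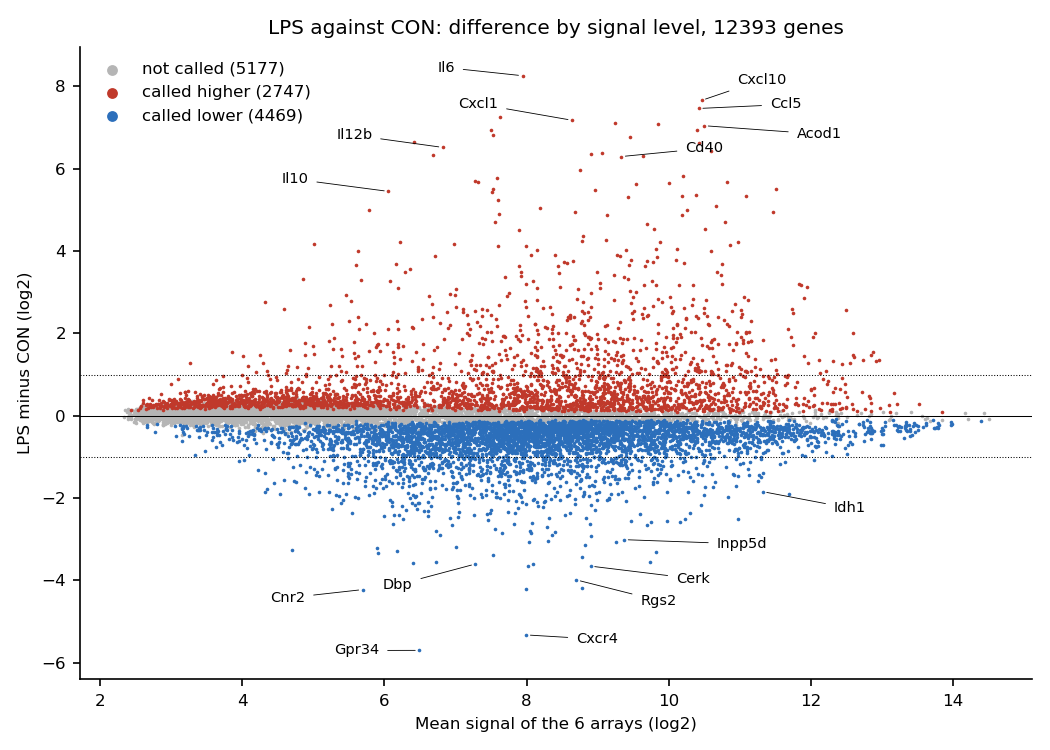
Difference between the LPS and CON means (log2, vertical axis) against the mean signal of the 6 arrays (log2, horizontal axis) for 12393 genes, with genes called higher in red and lower in blue and dotted lines at 2-fold. The highest points lie well above 6 and include Il6, chemokines, Acod1 and antiviral genes, the lowest is Gpr34 at -5.70, and bright genes lie mostly below 0.

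Cytokines and chemokines held the largest rises. Il6, the acute-phase cytokine, stood at 3.62, 3.66 and 4.17 in the CON arrays and 12.11, 12.13 and 11.98 in the LPS arrays. All LPS arrays were far above all CON arrays, with a difference of 8.26 ± 0.12 (adjusted p = 8.61e-18). The CON values lie within the range of the dimmest genes and the files hold no detection calls, so the size of this difference depends on the floor of the scale. Il12b, the shared subunit of IL-12 and IL-23, lay near the bottom of the scale without LPS, at 3.40, 3.34 and 3.95 in the CON arrays and 10.03, 10.20 and 10.01 in the LPS arrays. Il10, whose product restrains macrophages, was likewise at the bottom without LPS and reached 8.78, 8.73 and 8.83 with it (5.45 ± 0.13). Of 29 cytokines measured 22 rose and 2 fell, with a median of 1.34.

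The cytokines did not rise by like amounts. The list's further large rises were those of Il1a (6.95 ± 0.16), Il1b (6.63 ± 0.082), Tnf (5.64 ± 0.084), the IL-1 receptor antagonist Il1rn (5.31 ± 0.091) and the interferon-linked cytokine Il15 (3.63 ± 0.069). Ifnb1, the interferon that carries the second wave of the response, was at 3.94, 3.65 and 3.99 in the CON arrays and 5.99, 6.07 and 6.00 in the LPS arrays, a rise of 2.16 ± 0.12. Its groups did not overlap, and the p35 subunit Il12a (1.08 ± 0.16) and Il23a (0.41 ± 0.15) rose less. Hbegf, a growth factor, and Il16, a chemoattractant precursor, were the called falls (-0.74 and -1.33). The growth factor Csf1 (0.09, adjusted p = 0.11), Inhba (-0.15, adjusted p = 0.057) and Tgfb1 (0.04, adjusted p = 0.632) were not called.

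Most chemokines rose and a few fell. Cxcl1, a neutrophil attractant, was at 5.07, 4.97 and 5.11 in the CON arrays and 12.31, 12.24 and 12.13 in the LPS arrays. Cxcl10, a ligand of CXCR3 on T cells, was at 6.59, 6.67 and 6.63 in the CON arrays and 14.34, 14.29 and 14.25 in the LPS arrays. The groups were fully apart in both, with differences of 7.18 ± 0.12 and 7.66 ± 0.15, and the second gene came close to the top of the scale. 8 of 12 CXC chemokines and 13 of 16 CC chemokines rose, with medians of 2.03 and 2.10, the latter 3.50 without the dimmest genes. Ccl24 (2.08 ± 0.099), Ccl17 (1.22 ± 0.11) and Ccl22 (1.01 ± 0.12), better known from cells treated with IL-4, were among the risers. The called falls were in the platelet-type chemokine Ppbp (-1.31 ± 0.13), Cxcl14 (-0.56 ± 0.064), the stromal chemokine Cxcl12 (-0.44 ± 0.045) and Ccl6 (-0.52 ± 0.043).

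The receptors for chemokines were divided, and their largest change was a fall. Cxcr4, which holds cells in the marrow through CXCL12, was at 10.65, 10.67 and 10.64 in the CON arrays and 5.36, 5.16 and 5.48 in the LPS arrays, one of the largest falls of all genes (-5.32 ± 0.074). Ccr2, the receptor of the monocyte attractant CCL2, was at 9.23, 9.08 and 9.04 in the CON arrays and 7.06, 7.04 and 7.16 in the LPS arrays. In both the CON arrays were the higher ones and no LPS array came near them. Cxcr3 (-1.65 ± 0.10) and Cx3cr1 (-1.31 ± 0.12) fell as well, whereas Ccrl2, an atypical receptor that presents chemerin, rose by 4.66 ± 0.057. Ccr7, the lymph node homing receptor, rose by only 0.38 ± 0.093 and remained dim. Of 14 receptors 5 rose and 5 fell, or 5 and 4 under cyclic loess.

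**Figure D2:**
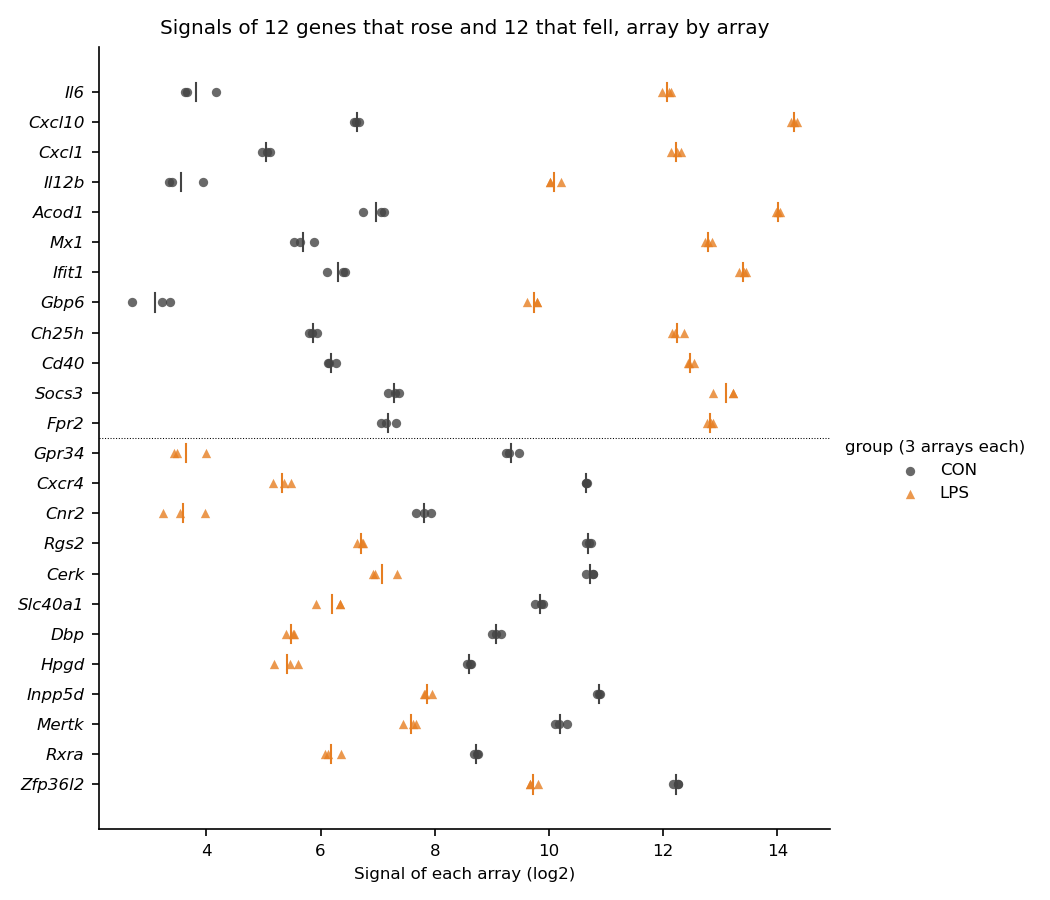
Signal of each array (log2, horizontal axis) for 12 genes that rose and 12 that fell, with CON as circles, LPS as triangles and the mean of 3 arrays as a bar. In none of the 24 genes do the groups overlap; Il6 goes from about 4 to about 12 and Gpr34 from about 9 to below 4.

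Antiviral genes rose without an exception among those measured. All 40 antiviral effectors were called higher, 38 of them at least 2-fold, with a median of 3.08. Mx1, a GTPase that traps viral particles, was at 5.64, 5.89 and 5.53 in the CON arrays and 12.79, 12.86 and 12.73 in the LPS arrays. Ifit1, which binds viral RNA ends, was at 6.42, 6.12 and 6.40 in the CON arrays and 13.41, 13.46 and 13.32 in the LPS arrays. The groups of both genes were apart by many times their spread (7.11 ± 0.18 and 7.08 ± 0.12). The nucleotide kinase Cmpk2 (6.78 ± 0.18), the oligoadenylate synthetase-like Oasl1 (6.35 ± 0.12), the deubiquitinase Usp18 (6.32 ± 0.097) that removes ISG15, and Slfn4 (5.77 ± 0.15) followed. The smallest rises were those of Ifi27l2a (0.53 ± 0.066) and Ifitm2 (0.97 ± 0.05).

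The interferon-inducible GTPases that attack vacuoles holding microbes rose in 8 of 8 cases, all at least 2-fold, with a median of 4.50. Gbp6 was at 3.36, 2.70 and 3.22 in the CON arrays and 9.79, 9.80 and 9.61 in the LPS arrays, and Iigp1 at 6.08, 5.76 and 5.47 in the CON arrays and 11.69, 11.83 and 11.67 in the LPS arrays. Its relatives Gbp2 (5.09 ± 0.16), Gbp3 (5.01 ± 0.12), Igtp (4.00 ± 0.075) and Gbp7 (3.70 ± 0.098) followed, and the regulatory GTPases Irgm2 (3.41 ± 0.072) and Irgm1 (2.89 ± 0.051) rose least of the family. Sequences of these genes are similar, so probe sets of the family may share signal.

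Sensors of nucleic acid and their adaptors went in opposite directions. The RNA helicase Ifih1 was at 8.74, 8.78 and 8.83 in the CON arrays and 12.88, 12.94 and 12.95 in the LPS arrays, and Dhx58 (3.46 ± 0.064), Ifi204 (3.49 ± 0.24) and the DNA sensor Aim2 (2.21 ± 0.081) rose with it. Mavs, the mitochondrial adaptor through which the RNA helicases signal, was at 8.78, 8.58 and 8.47 in the CON arrays and 7.53, 7.28 and 7.05 in the LPS arrays. No LPS array reached a CON array in it (-1.32 ± 0.10). Sting1 (-0.91 ± 0.077), the adaptor of the DNA sensor cGAS, and Nlrx1 (-1.58 ± 0.13), a mitochondrial inhibitor of MAVS, fell as well. Among interferon regulatory factors 6 of 8 rose and Irf3, the factor that is phosphorylated rather than induced, fell (-0.58 ± 0.056), though its second probe set read -0.10 and was not called. Irf7, which amplifies the production of interferon, led at 4.26 ± 0.078, followed by Irf1 (1.85 ± 0.048), Irf9 (1.15 ± 0.048), Irf5 (1.11 ± 0.051) and Irf2 (1.06 ± 0.07). Irf8 rose by only 0.20 ± 0.055, and Irf4 was not called (0.10, adjusted p = 0.434).

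Promoters were searched for the motifs of factors known from this response and from the clock. RefSeq windows of 250 bases before to 50 after the start (GRCm38.p6) were found for 9887 of the tested genes, and 7 motifs were searched in them on both strands. The kB motif of NF-kB (GGANTTNCC) was in 4.09% of all windows, in 8.43% of 534 genes at least 2-fold higher, in 17.0% of 53 genes at least 16-fold higher and in 3.49% of 630 genes at least 2-fold lower. The interferon-stimulated response element ISRE (GAAANNGAA) was in 7.2%, 15.2%, 30.2% and 4.13% in the same order. Either motif was in 11% of all windows, in 43.4% of the genes at least 16-fold higher and in none of the 19 genes at least 8-fold lower. AP-1 (TGANTCA) was in 6.27%, 10.9%, 24.5% and 4.44%, the TATA letters (TATAAA) in 10.1%, 13.1%, 30.2% and 6.51%, and CRE (TGACGTCA) in 2.75%, 2.06%, 1.89% and 1.75%. The E-box of clock and MYC proteins (CACGTG) was in 9.33%, 8.80%, 3.77% and 10.8%, and the D-box (TTATGTAA) in 0.566%, 0.936%, 0% and 0.952%. Matches of different motifs may overlap. These shares are descriptions without a test, and a match does not show that a factor was bound.

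The windows below were chosen because their genes rose or fell at least 2-fold and hold a searched motif before the start. They run over the 250 bases before the start, read 5′ to 3′ on the strand of the gene, and capitals mark only the matches of the motif named with each window, so that matches of the other searched motifs, AP-1 and TATA included, stay in lower case. For Il6 (chr5:30012864-30013113, plus strand), Cxcl1 (chr5:90890995-90891244, plus strand) and Acod1 (chr14:103046762-103047011, plus strand) the capitals are the kB match, at 43 to 35, 70 to 62 and 85 to 77 bases before the start, and these genes rose by 8.26, 7.18 and 7.05.
Il6: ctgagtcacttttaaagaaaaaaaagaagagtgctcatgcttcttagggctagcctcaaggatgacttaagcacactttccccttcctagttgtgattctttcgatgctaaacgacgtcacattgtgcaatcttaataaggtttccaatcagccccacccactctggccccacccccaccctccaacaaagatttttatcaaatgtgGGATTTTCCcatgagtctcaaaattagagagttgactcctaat
Cxcl1: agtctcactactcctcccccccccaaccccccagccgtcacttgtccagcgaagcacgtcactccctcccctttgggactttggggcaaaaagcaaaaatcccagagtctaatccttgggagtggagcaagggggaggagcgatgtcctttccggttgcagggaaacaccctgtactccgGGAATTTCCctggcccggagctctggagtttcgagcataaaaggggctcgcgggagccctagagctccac
Acod1: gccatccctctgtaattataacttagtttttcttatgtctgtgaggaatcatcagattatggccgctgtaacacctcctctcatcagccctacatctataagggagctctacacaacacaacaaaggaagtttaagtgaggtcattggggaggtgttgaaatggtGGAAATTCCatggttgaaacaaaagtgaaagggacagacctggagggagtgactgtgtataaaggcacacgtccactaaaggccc
For Nfkbia (chr12:55492648-55492897, minus strand), which encodes the inhibitor of NF-kB, kB matches lie 178 to 170 and 29 to 21 bases before the start and an ISRE match 53 to 45. For Cxcl10 (chr5:92348890-92349139, minus strand) kB matches lie 158 to 150 and 102 to 94 bases before the start and an ISRE match 213 to 205.
Nfkbia: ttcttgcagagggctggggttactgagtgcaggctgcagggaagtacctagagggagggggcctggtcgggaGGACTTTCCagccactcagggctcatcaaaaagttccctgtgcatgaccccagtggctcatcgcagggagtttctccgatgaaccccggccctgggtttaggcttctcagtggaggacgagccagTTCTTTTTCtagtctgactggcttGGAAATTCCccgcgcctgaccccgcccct
Cxcl10: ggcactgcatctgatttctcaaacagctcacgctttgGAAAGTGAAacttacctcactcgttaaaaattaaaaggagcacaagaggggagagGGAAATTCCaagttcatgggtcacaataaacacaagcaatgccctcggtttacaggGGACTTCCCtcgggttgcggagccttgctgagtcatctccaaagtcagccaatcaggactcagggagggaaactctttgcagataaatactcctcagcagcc
For Ifit1 (chr19:34640639-34640888, plus strand) and Gbp2 (chr3:142620413-142620662, plus strand) the capitals are ISRE matches, in Ifit1 at 109 to 101 and 103 to 95 and 84 to 76 bases before the start, the first pair overlapping, and in Gbp2 at 58 to 50 bases. They rose by 7.08 and 5.09.
Ifit1: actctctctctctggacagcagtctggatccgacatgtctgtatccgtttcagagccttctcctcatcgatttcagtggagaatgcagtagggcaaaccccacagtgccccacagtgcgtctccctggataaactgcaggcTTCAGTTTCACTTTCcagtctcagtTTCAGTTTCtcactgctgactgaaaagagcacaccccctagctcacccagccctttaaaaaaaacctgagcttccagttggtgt
Gbp2: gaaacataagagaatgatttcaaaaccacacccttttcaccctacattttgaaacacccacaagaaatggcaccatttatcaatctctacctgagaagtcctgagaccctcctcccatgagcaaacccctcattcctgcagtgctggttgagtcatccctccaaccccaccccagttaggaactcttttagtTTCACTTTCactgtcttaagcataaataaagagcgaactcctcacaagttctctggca
For the clock gene Per3 (chr4:151044666-151044915, minus strand), which fell (-2.12), the capitals are D-box matches at 205 to 198 and 158 to 151 bases before the start.
Per3: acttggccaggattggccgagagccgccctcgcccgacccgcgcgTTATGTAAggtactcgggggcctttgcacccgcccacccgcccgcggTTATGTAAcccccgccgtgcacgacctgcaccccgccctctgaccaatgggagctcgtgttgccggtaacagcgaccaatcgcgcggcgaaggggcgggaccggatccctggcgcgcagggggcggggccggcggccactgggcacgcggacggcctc

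Receptors that sense microbes rose unevenly, and TLR4 itself fell. Tlr4 was at 8.61, 8.54 and 8.56 in the CON arrays and 7.90, 7.77 and 7.78 in the LPS arrays, a difference of -0.75 ± 0.049 with no overlap of the groups. Its co-receptor Cd14 was at 12.07, 12.09 and 12.12 in the CON arrays and 13.65, 13.67 and 13.63 in the LPS arrays, which is 1.56 ± 0.04 higher. The RNA receptor Tlr3 (3.10 ± 0.082), the lipopeptide receptors Tlr1 (2.32 ± 0.062), Tlr6 (2.05 ± 0.07) and Tlr2 (2.02 ± 0.057), and the adaptor Myd88 (2.62 ± 0.043) rose, whereas the kinase Irak1 (-0.63 ± 0.054) fell. Ly96, which encodes MD-2, rose by 0.27 ± 0.049. In all 13 of 21 members of the list rose and 4 fell.

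Genes of the NF-kB system rose in 20 of 23 cases and 3 were not called, with a median of 2.00. The subunits Rel (3.07 ± 0.068), Nfkb2 (2.46 ± 0.065), Relb (1.91 ± 0.077) and Rela (0.85 ± 0.05) rose together with their inhibitors Nfkbiz (4.05 ± 0.095), Nfkbie (2.69 ± 0.12), Nfkbib (2.36 ± 0.061) and Nfkbia (1.35 ± 0.041). Traf1, an adaptor of TNF receptors, was at 5.04, 4.61 and 4.75 in the CON arrays and 10.23, 10.24 and 10.23 in the LPS arrays, which made it the largest rise of the list. Tnfaip3, the deubiquitinase A20 that ends the signal, was at 5.03, 5.05 and 4.98 in the CON arrays and 7.42, 7.19 and 7.39 in the LPS arrays. In each of these the LPS arrays were the higher ones without overlap. The kinase subunit Ikbkg (0.01, adjusted p = 0.926), Map3k14 (0.11, adjusted p = 0.134) and Otulin (-0.12, adjusted p = 0.115) were not called.

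Cytokine receptors and the JAK-STAT pathway rose in 22 of 34 cases and fell in 8. Il15ra (3.39 ± 0.092), Stat2 (3.37 ± 0.097), the kinase Jak2 (3.19 ± 0.056), Il13ra1 (2.18 ± 0.087) and Stat5a (1.97 ± 0.062) led. Falls were largest in the receptors of transforming growth factor beta, Tgfbr1 (-1.73 ± 0.045) and Tgfbr2 (-1.42 ± 0.039), in the IL-6 receptor Il6ra (-1.69 ± 0.11) and in the interferon gamma receptor Ifngr1 (-1.01 ± 0.052). Il6ra was at 9.25, 9.44 and 9.26 in the CON arrays and 7.57, 7.42 and 7.87 in the LPS arrays. The ligand Il6 and its receptor gene thus moved in opposite directions in the same arrays.

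Feedback inhibitors split within their families. Socs3, which blocks signalling of the IL-6 receptor, was at 7.19, 7.38 and 7.30 in the CON arrays and 13.22, 13.22 and 12.88 in the LPS arrays. Socs1, the inhibitor of interferon signalling, was at 4.55, 4.91 and 4.48 in the CON arrays and 7.96, 7.67 and 7.59 in the LPS arrays. No array of one group reached the other group in either gene, and of 13 members of the list 9 rose and 3 fell, the latter being Socs5 (-0.68 ± 0.054), Socs6 (-0.57 ± 0.059) and Socs2 (-0.38 ± 0.051). A second probe set of Socs5 read 0.42. The phosphatases of MAP kinases were more evenly divided, with 5 higher and 8 lower of 16. Dusp2 was at 5.71, 5.51 and 5.75 in the CON arrays and 10.70, 10.67 and 10.75 in the LPS arrays, and Dusp3 at 10.08, 10.17 and 10.21 in the CON arrays and 8.16, 8.11 and 8.20 in the LPS arrays. Dusp16 (3.32 ± 0.053), Spred1 (2.02 ± 0.067) and Dusp1 (1.14 ± 0.052) went with Dusp2, and Dusp6 (-1.43 ± 0.044), Dusp22 (-1.18 ± 0.079) and Dusp7 (-0.87 ± 0.092) with Dusp3.

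RNA-binding proteins that shorten the life of cytokine transcripts showed the same division. Zfp36, which encodes tristetraprolin, was at 9.63, 9.83 and 9.66 in the CON arrays and 11.95, 11.87 and 11.97 in the LPS arrays. Its paralogs went down, with Zfp36l2 at 12.17, 12.26 and 12.27 in the CON arrays and 9.68, 9.68 and 9.81 in the LPS arrays. Zfp36l1 fell by nearly the same amount (-2.35 ± 0.065), and in none of the 3 genes did the groups overlap. The endonuclease Zc3h12a (3.20 ± 0.11), known as regnase 1, N4bp1 (2.50 ± 0.076) and the stabilising factor Arid5a (1.86 ± 0.078) rose, the poly(A) polymerase Tent5c (-2.16 ± 0.092) fell, and the deadenylase subunit Cnot3 (-0.10, adjusted p = 0.304) and the roquin Rc3h2 (0.15, adjusted p = 0.0911) were not called. A transcript with a known part in this feedback is Mir155hg, the host transcript of miR-155, named here after its values were seen. It was at 3.24, 3.43 and 3.16 in the CON arrays and 8.43, 8.43 and 8.01 in the LPS arrays, a rise of 5.01 ± 0.10 with no overlap of the groups. The array reads the host transcript and not the mature miRNA. The strand known to be active has the RefSeq sequence below (GRCm38.p6, chr16:84714143-84714165, plus strand), with its seed, bases 2 to 8, in capitals.
mmu-miR-155-5p: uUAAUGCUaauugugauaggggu

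**Figure D3:**
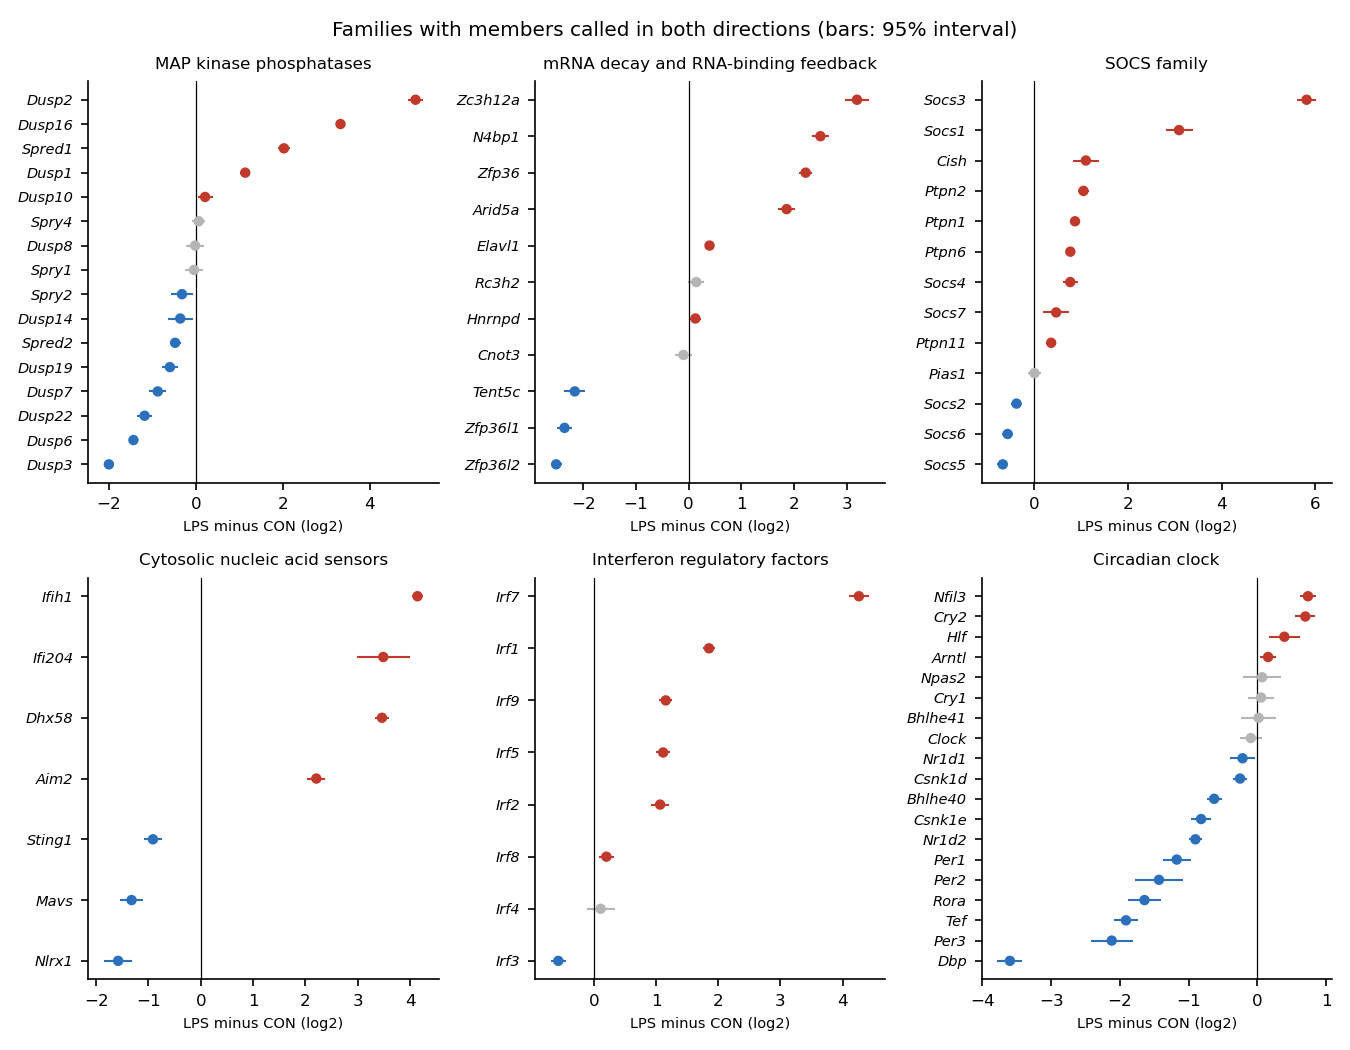
Difference between LPS and CON (log2, horizontal axes) with its 95% interval for each measured member of 6 families, in red where called higher, in blue where called lower and in grey where not called. In each family some members lie to the right of 0 and some to the left, Dusp2 against Dusp3, Zfp36 against Zfp36l1 and Zfp36l2, and Ifih1 against Mavs among them.

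The immediate-early factors did not move as a class at 4 h. Of 36 measured 16 rose, 10 fell and 10 were not called, with a median of 0.10. The partners of JUN proteins Batf2 (2.95 ± 0.18) and Batf (2.58 ± 0.11), the repressor Atf3 (2.40 ± 0.052), Klf7 (1.90 ± 0.08) and Junb (1.62 ± 0.069) rose. Egr1, a classical early factor, was at 10.48, 10.48 and 10.33 in the CON arrays and 8.69, 8.68 and 8.83 in the LPS arrays. Fos was at 11.58, 11.53 and 11.58 in the CON arrays and 10.61, 10.60 and 10.73 in the LPS arrays. The LPS arrays were the lower ones in both, without overlap (-1.70 ± 0.066 and -0.91 ± 0.063), and the MYC antagonist Mxi1 (-2.14 ± 0.039) and Klf10 (-1.64 ± 0.046) fell as well.

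Factors that set the identity of myeloid cells were divided, 19 higher and 18 lower of 42. Ets2 (2.61 ± 0.055), Bcl6 (1.87 ± 0.06), Cebpd (1.81 ± 0.049), Spi1 (1.66 ± 0.053), which encodes PU.1, and Prdm1 (1.61 ± 0.056) rose. Rxra, the common partner of nuclear receptors, was at 8.73, 8.68 and 8.76 in the CON arrays and 6.13, 6.07 and 6.35 in the LPS arrays. Cebpa, the factor of granulocyte and monocyte precursors, was at 9.82, 9.80 and 9.93 in the CON arrays and 7.86, 7.84 and 8.01 in the LPS arrays. Their groups did not overlap (-2.54 ± 0.10 and -1.95 ± 0.058), and Mef2c (-2.47 ± 0.084), Mef2d (-2.05 ± 0.052), Foxo3 (-2.03 ± 0.071), Fli1 (-1.87 ± 0.12) and Bach2 (-1.85 ± 0.13) fell with them. A second probe set of Mef2d read 0.24. Cebpb and Cebpd rose while Cebpa and Cebpg (-0.90 ± 0.054) fell, a split within 1 family. Cebpb (1.09 ± 0.047) changed less than Cebpd.

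Circadian clock genes fell more often than they rose, as did genes of like signal. The list's median signal was 7.45 in CON, and 57.9% of it fell and 21.1% rose. Of the genes of middle signal 48.0% fell and 19.7% rose. Of 19 members 11 fell and 4 rose, with a median of -0.25, which was -0.15 with 9 falls and 5 rises under cyclic loess and -0.16 with 9 and 3 with the second-brightest probe set. Dbp, an output factor that binds D-boxes, was at 9.07, 9.0 and 9.17 in the CON arrays and 5.39, 5.51 and 5.54 in the LPS arrays. Per3 was at 7.27, 7.52 and 7.57 in the CON arrays and 5.16, 5.33 and 5.52 in the LPS arrays, and its relatives Per2 (-1.43 ± 0.17) and Per1 (-1.17 ± 0.095) fell too. In Dbp and Per3 the CON arrays were above the LPS arrays throughout, though a second probe set of Per3 read 0.05. Tef (-1.91 ± 0.079) and Rora (-1.64 ± 0.11) followed, while Nfil3, which opposes DBP at D-boxes, rose (0.74 ± 0.054) together with Cry2 (0.70 ± 0.068). Glucocorticoid-linked genes, several of them clock genes as well, fell in 8 of 15 cases (53.3%), near the 54.2% of the brightest genes. Tsc22d3 (-3.60 ± 0.089), a mediator of glucocorticoid action, was lowest after Sesn1, while the receptor Nr3c1 (1.13 ± 0.052) rose. Among the clock's core pair, Arntl (0.16 ± 0.052) and Clock (-0.09, adjusted p = 0.32) changed little or was not called. Chromatin modifiers fell in 17 of 30 cases (56.7%) and rose in 5, or 12 and 6 under cyclic loess, against 48.0% lower among genes of middle signal. Hdac5 (-1.84 ± 0.13), the maintenance methyltransferase Dnmt1 (-1.47 ± 0.073), Kdm2b (-1.45 ± 0.062) and Smarca2 (-1.42 ± 0.065) fell against the demethylase Kdm7a (1.30 ± 0.12).

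G protein-coupled receptors included the largest fall of all genes and several large rises. Gpr34, a receptor for lysophosphatidylserine, was at 9.47, 9.29 and 9.26 in the CON arrays and 4.00, 3.49 and 3.43 in the LPS arrays. Cnr2, the cannabinoid receptor of immune cells, was at 7.68, 7.93 and 7.81 in the CON arrays and 3.54, 3.97 and 3.24 in the LPS arrays. The LPS arrays of both lay near the bottom of the scale, and the falls were -5.70 ± 0.14 and -4.22 ± 0.16. The formyl peptide receptor Fpr2 rose from 7.15, 7.07 and 7.31 to 12.78, 12.87 and 12.83, and the niacin receptor Hcar2 (5.51 ± 0.12), the fatty acid receptor Gpr84 (4.54 ± 0.086) and P2ry14 (2.01 ± 0.10) rose too. The adenine nucleotide receptor P2ry12 (-1.92 ± 0.089), the proton sensor Gpr65 (-1.90 ± 0.061), Gpr146 (-1.87 ± 0.12) and the prostaglandin receptor Ptger2 (-1.17 ± 0.064) fell, against rises of Ptgir (1.89 ± 0.078) and Ptger4 (0.95 ± 0.067). Of 33 receptors 14 rose and 13 fell.

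Genes that regulate or carry G protein signals fell more often than they rose, 11 against 7 of 18. Rgs2 was at 10.64, 10.70 and 10.73 in the CON arrays and 6.75, 6.73 and 6.64 in the LPS arrays, with every LPS array far below every CON array. Arrb1 (-2.39 ± 0.092), Rgs18 (-1.83 ± 0.089), Rgs10 (-1.73 ± 0.045) and Rgs1 (-1.06 ± 0.068) fell, and Rgs14 (1.0 ± 0.051), Gng12 (0.88 ± 0.049) and Gna15 (0.81 ± 0.082) rose. In lipid signalling below the receptors 12 of 24 genes fell and 8 rose, a list whose count is even under cyclic loess (10 higher and 10 lower). Inpp5d, the inositol phosphatase SHIP1 that opposes PI3K, was at 10.88, 10.90 and 10.85 in the CON arrays and 7.84, 7.82 and 7.94 in the LPS arrays. Cerk, the ceramide kinase, was at 10.65, 10.77 and 10.76 in the CON arrays and 6.95, 6.92 and 7.34 in the LPS arrays. Both fell without overlap, as did Dgkz (-1.71 ± 0.056), whereas the adaptor Pik3ap1 (2.12 ± 0.10) and the catalytic subunits Pik3cd (0.89 ± 0.061) and Pik3cg (0.71 ± 0.065) rose.

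Metabolic genes of sugar were divided, and those of mitochondria fell for the most part. Acod1, which makes itaconate from an intermediate of the citrate cycle, was at 6.74, 7.06 and 7.11 in the CON arrays and 14.05, 14.02 and 13.99 in the LPS arrays. The arginine importer Slc7a2 (4.16 ± 0.078) and Gch1 (3.79 ± 0.05), the first enzyme of tetrahydrobiopterin synthesis, rose, but the inducible nitric oxide synthase Nos2 rose from a low level, at 5.11, 4.70 and 4.88 in the CON arrays and 6.18, 6.47 and 6.41 in the LPS arrays. Arg1 (1.04 ± 0.19) and Arg2 (0.94 ± 0.089) rose by similar amounts, and Ido1 was not called (0.12, adjusted p = 0.357). The later enzymes of tetrahydrobiopterin synthesis, Pts (-0.74 ± 0.06) and Spr (-0.57 ± 0.14), fell. In glycolysis 10 genes rose and 10 fell of 22, and the median of -0.02 turned to 0.02 under cyclic loess. Pfkfb3, which makes the activator of phosphofructokinase, was at 7.37, 7.41 and 7.32 in the CON arrays and 11.32, 11.22 and 11.22 in the LPS arrays, the glucose carrier Slc2a1 (1.41 ± 0.045) rose while Slc2a3 (-1.72 ± 0.069) fell, and Pfkp (1.29 ± 0.046) and Hk2 (1.08 ± 0.069) rose while Pdk4 (-1.58 ± 0.13), an inhibitor of pyruvate dehydrogenase, fell. Of 23 targets of hypoxia-inducible factors 11 rose and 6 fell, with P4ha1 (0.85 ± 0.049) and Car9 (-0.89 ± 0.13) among those outside sugar metabolism.

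In the citrate cycle list, which holds cytosolic enzymes as well, 22 of 26 genes fell and 1 rose (median -0.39, or -0.21 under cyclic loess). Idh1, the cytosolic isocitrate dehydrogenase, was at 12.29, 12.17 and 12.27 in the CON arrays and 10.40, 10.43 and 10.36 in the LPS arrays, the largest fall of the list at -1.84 ± 0.042. The cytosolic aconitase Aco1 (-0.90 ± 0.081), Fh1 (-0.89 ± 0.045), Idh3g (-0.82 ± 0.047) and Sdhb (-0.81 ± 0.045) followed, and Dld (0.51 ± 0.05) was the gene that rose. Respiratory chain subunits fell in 40 of 44 cases (median -0.37, or -0.21 with 31 falls under cyclic loess). The changes were small and alike, the largest being Ndufs8 (-0.68 ± 0.049) and Ndufa8 (-0.61 ± 0.04), and Cycs, which encodes cytochrome c, rose against them (0.98 ± 0.11). Ribosomal proteins of mitochondria fell in 21 of 33 cases with a median of -0.15, which was 0.02 under cyclic loess, so the direction of that median depends on the scaling. The pentose phosphate pathway fell in 6 of 7, with Rpia (-0.74 ± 0.056) and Taldo1 (-0.72 ± 0.041) lowest and Rpe (0.59 ± 0.048) rising.

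Fatty acid oxidation fell in 26 of 34 cases and rose in 4 (median -0.43). Acadm, the medium-chain acyl-CoA dehydrogenase, was at 10.55, 10.58 and 10.62 in the CON arrays and 8.99, 8.97 and 8.98 in the LPS arrays. Abcd2 (-1.56 ± 0.16), Acox3 (-1.54 ± 0.13) and Crat (-1.27 ± 0.091) fell by similar amounts, while Acaa1a (0.57 ± 0.064) rose. Lipid uptake and storage was mixed, with Gpd2 (2.43 ± 0.043), Fabp3 (2.41 ± 0.096) and Acsl5 (1.31 ± 0.043) up and Pnpla7 (-1.50 ± 0.047), Pparg (-1.14 ± 0.16) and the acid lipase Lipa (-0.97 ± 0.044) down. In cholesterol synthesis 10 rose and 10 fell of 22 (11 and 5 under cyclic loess). Srebf2 (1.17 ± 0.053), Idi1 (1.13 ± 0.06) and Cyp51 (0.92 ± 0.049) were up and Dhcr7, the last step, was down at -1.48 ± 0.084. Among targets of the liver X receptor 14 of 21 fell, with Npc1 (-1.33 ± 0.058), Scd2 (-1.27 ± 0.059) and Mylip (-1.02 ± 0.049) lowest apart from Rxra and Mertk, whereas Ch25h, which makes 25-hydroxycholesterol, went from 5.80, 5.85 and 5.95 to 12.21, 12.36 and 12.16.

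Enzymes that make prostaglandin E2 rose and the one that inactivates it fell. Ptges, its terminal synthase, was at 5.48, 5.81 and 5.64 in the CON arrays and 10.10, 10.04 and 10.29 in the LPS arrays. Ptgs2 (2.47 ± 0.084), the inducible cyclooxygenase, and Pla2g4a (2.28 ± 0.053), which frees arachidonic acid, rose as well. Hpgd, the enzyme that inactivates prostaglandins, was at 8.64, 8.62 and 8.56 in the CON arrays and 5.46, 5.19 and 5.60 in the LPS arrays, a fall without overlap. The synthase of prostaglandin D2, Hpgds (-1.62 ± 0.058), the thromboxane synthase Tbxas1 (-0.97 ± 0.045) and the leukotriene genes Alox5ap (-1.06 ± 0.038) and Ltc4s (-0.75 ± 0.10) also fell. Of 17 eicosanoid genes 6 rose and 9 fell, and the median of -0.51 turned to 0.04 with the second-brightest probe set (7 higher and 8 lower).

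Most genes of lysosomes and of autophagy fell. Of 39 lysosomal enzymes and membrane proteins 31 fell and 5 rose, with a median of -0.63 (-0.46 under cyclic loess). Sgsh, which degrades heparan sulfate, was at 9.06, 9.12 and 9.06 in the CON arrays and 6.19, 6.25 and 6.24 in the LPS arrays. Pla2g15 (-2.61 ± 0.061), the lysosomal phospholipase, Manba (-1.51 ± 0.037) and the cholesterol exporter Npc1 (-1.33 ± 0.058) followed it. Acp5, the tartrate-resistant acid phosphatase, rose against the list from 7.60, 7.51 and 7.57 to 10.16, 9.97 and 10.06, together with the channel Mcoln2 (2.53 ± 0.053). Subunits of the vacuolar proton pump fell in 12 of 16 cases, with Atp6v1c1 (-1.04 ± 0.045) and Atp6v0a1 (-1.02 ± 0.07) lowest and Atp6v1e1 (0.68 ± 0.041) and Tcirg1 (0.67 ± 0.045) up, and cathepsins and their inhibitors fell in 9 of 15 with Ctsc (1.36 ± 0.033) the main riser.

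Autophagy genes fell in 20 of 26 cases (median -0.57, or -0.32 with the second-brightest probe set). Nbr1, a cargo receptor, was at 10.42, 10.43 and 10.42 in the CON arrays and 8.39, 8.31 and 8.39 in the LPS arrays. The initiating kinases Ulk1 (-1.66 ± 0.093) and Ulk2 (-1.59 ± 0.068) and Gabarapl1 (-1.23 ± 0.048) fell too. The cargo receptors Sqstm1 (0.80 ± 0.045) and Tax1bp1 (1.18 ± 0.047) rose, so the receptors of the list were split. Tfeb, which drives lysosome genes, fell as well (-0.79 ± 0.078).

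Genes of presentation on MHC class I rose by more than those of the standard proteasome. The inducible subunits Psmb9 (2.22 ± 0.051), Psmb10 (2.01 ± 0.042) and Psmb8 (1.83 ± 0.039) rose, and the peptide pump gene Tap1 was at 7.68, 7.58 and 7.49 in the CON arrays and 11.30, 11.40 and 11.37 in the LPS arrays. Their standard counterparts Psmb6 (0.27 ± 0.045) and Psmb7 (0.39 ± 0.065) rose less. Over 31 standard subunits 12 rose and 7 fell, with a median of 0.04 (0.20 under cyclic loess), against 13 of 18 and a median of 0.64 for the class I list. The class I chain H2-K1 was not called (0.09, adjusted p = 0.0775). Class II genes rose in 7 of 12 cases, led by H2-Ab1 (0.99 ± 0.089) and Cd74 (0.86 ± 0.066), while Ifi30 (-1.03 ± 0.038), a thiol reductase of antigen processing, fell.

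Costimulators rose in 19 of 27 cases with a median of 1.34, which was 0.67 with the second-brightest probe set. Cd40 was at 6.12, 6.15 and 6.28 in the CON arrays and 12.46, 12.54 and 12.43 in the LPS arrays, and Cd274, which encodes PD-L1, at 7.72, 7.77 and 7.83 in the CON arrays and 11.95, 11.98 and 12.04 in the LPS arrays. The LPS arrays of both were above the CON arrays without overlap. Tnfsf9 (4.02 ± 0.067), Icam1 (3.50 ± 0.049) and Slamf7 (3.09 ± 0.054) followed. Vsir (-2.58 ± 0.044) and Havcr2 (-1.78 ± 0.065), receptors that restrain immune cells, fell. Of the B7 pair Cd86 (1.06 ± 0.057) rose and Cd80 was not called (-0.03, adjusted p = 0.728). In the TNF superfamily 15 of 26 rose, with Tnfsf10 (4.01 ± 0.19), which encodes TRAIL, and Fas (2.80 ± 0.14) among them, and Tnfrsf21 (-2.20 ± 0.099) fell most.

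**Figure D4:**
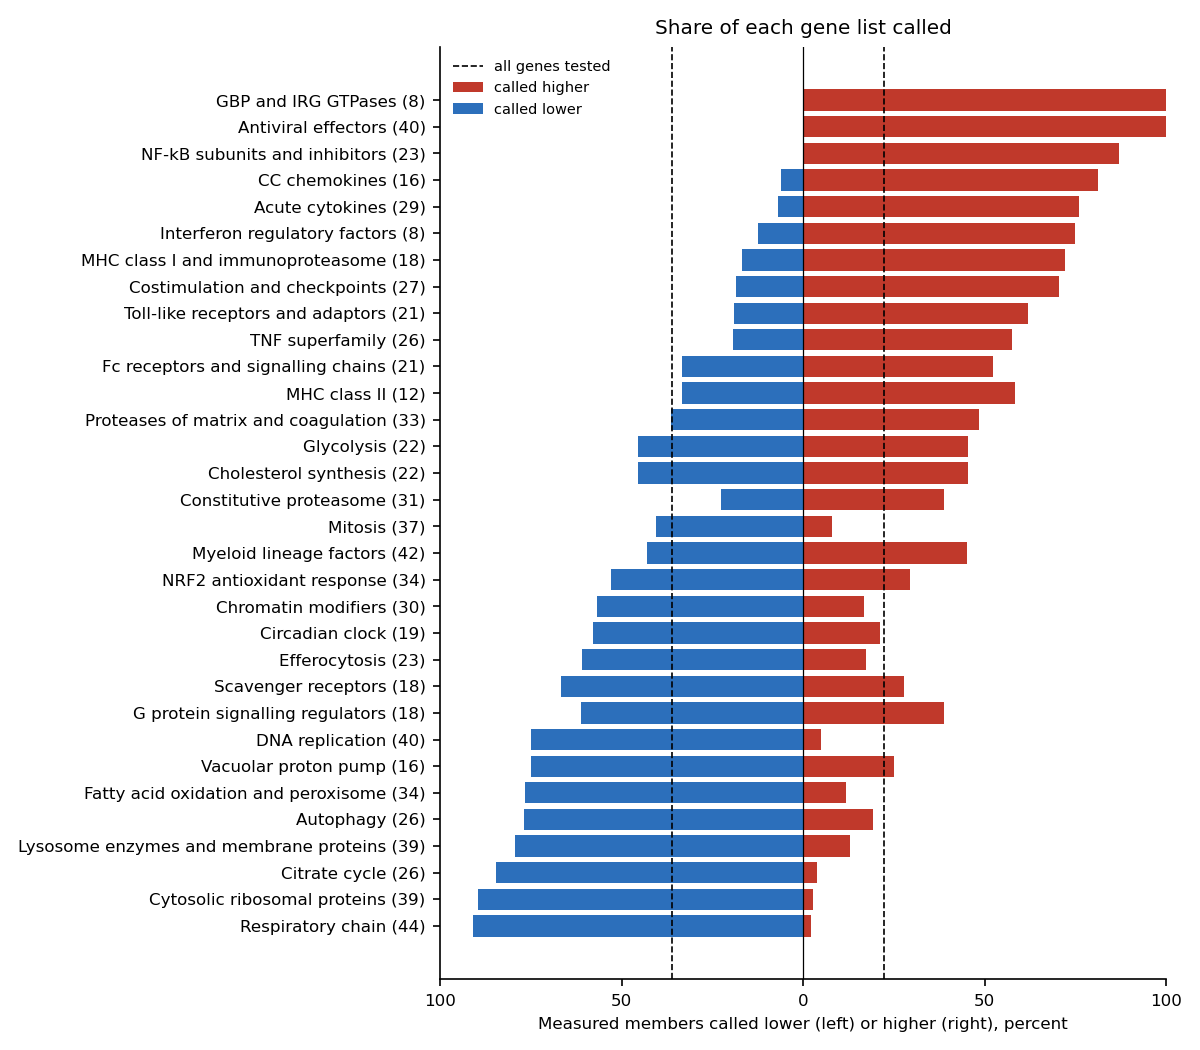
Share of the measured members (number in brackets) of 32 gene lists that was called higher (red, to the right) or lower (blue, to the left) under LPS, in percent, with dashed lines at the shares over all genes tested (22.2% higher and 36.1% lower). Antiviral effectors and GBP and IRG GTPases were higher throughout, and respiratory chain and ribosomal protein genes were lower in about 9 of 10 cases. Among the brightest 4131 genes alone 29.9% were higher and 54.2% lower.

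Receptors for uptake were divided. Mertk, which binds dying cells, was at 10.11, 10.31 and 10.17 in the CON arrays and 7.63, 7.45 and 7.66 in the LPS arrays. Cd300a (-2.40 ± 0.039), Itgb5 (-1.60 ± 0.048), Cd300ld (-1.53 ± 0.056) and the bridging ligand Gas6 (-1.42 ± 0.038) fell too, and of 23 genes for the clearance of dying cells 14 fell and 4 rose. Axl, the relative of Mertk, rose by 0.34 ± 0.056. Among scavenger receptors the lipoprotein receptor Olr1 was at 4.94, 4.82 and 5.16 in the CON arrays and 10.35, 10.33 and 9.97 in the LPS arrays, and Marco (3.90 ± 0.075) and Msr1 (1.81 ± 0.043) rose with it. Cd163 (-1.35 ± 0.13), Stab1 (-1.21 ± 0.071), Lrp1 (-1.08 ± 0.20) and the mannose receptor Mrc1 (-0.86 ± 0.058) fell, so that the list had 5 higher and 12 lower of 18.

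Among receptors for antibodies both activating and inhibitory ones rose. Fcgr4 (2.14 ± 0.084), Fcgr1 (2.03 ± 0.06) and the inhibitory Fcgr2b (1.42 ± 0.04) rose, Fcgr3 (-0.57 ± 0.039) and the neonatal receptor Fcgrt (-0.72 ± 0.056) fell, and of 21 genes 11 rose and 7 fell. Trem1 (2.24 ± 0.16), which amplifies inflammation, rose while Trem2 (-0.82 ± 0.044) fell, though a second probe set of Trem2 read 0.11. Among C-type lectins Clec4e (3.12 ± 0.072), the Mincle receptor, Clec5a (2.45 ± 0.075) and Clec2d (2.21 ± 0.053) rose and Clec10a (-0.81 ± 0.12) and Clec7a (-0.47 ± 0.04), the receptor of fungal glucans, fell. In the list of alternative activation 7 rose and 13 fell of 27. Its rises included 3 chemokines, Il4ra (1.17 ± 0.048) and Arg1, and its falls included 5 surface receptors and Retnla (-0.49 ± 0.12), so the list did not move one way.

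Among genes of cell death, inflammasome sensors and inhibitors of apoptosis rose. In all 11 of 19 genes of inflammasomes and caspases rose and 5 fell. Casp4, which binds LPS inside the cell, was at 7.89, 7.82 and 8.02 in the CON arrays and 11.58, 11.68 and 11.65 in the LPS arrays. Nlrp3 (3.04 ± 0.11), Mefv (4.25 ± 0.078), the gene of pyrin, and Casp1 (2.35 ± 0.051) rose, while the adaptor Pycard (-0.27 ± 0.04) and Txnip (-1.90 ± 0.043) fell. The apoptosis inhibitors Cflar (2.37 ± 0.055), Birc3 (1.84 ± 0.052) and Birc2 (1.46 ± 0.051) rose and Casp9 (-1.49 ± 0.088) and Dapk1 (-1.77 ± 0.088) fell, with a second probe set of Casp9 at 0.51 instead, within a list of 12 higher and 7 lower of 28. Among p53 targets 6 rose and 13 fell of 25. Cdkn1a, the inhibitor p21, rose by 1.91 ± 0.049 from 11.01, 11.11 and 11.10 in the CON arrays. Sesn1, a sestrin also driven by FOXO factors, was at 10.82, 10.91 and 10.89 in the CON arrays and 6.70, 6.48 and 6.90 in the LPS arrays, with every LPS array below every CON array. Gadd45b (2.63 ± 0.053), Gadd45a (1.75 ± 0.067) and Fas rose, and Trp53inp1 (-2.89 ± 0.062) and the repair gene Xpc (-2.19 ± 0.11) fell.

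DNA replication genes fell in 30 of 40 cases, with a median of -0.39 (-0.28 under cyclic loess). Gmnn (-1.74 ± 0.076), the gene of geminin, Cdt1 (-1.17 ± 0.058), which geminin binds, Rpa1 (-1.12 ± 0.04) and Pole2 (-0.97 ± 0.15) were lowest. Mitotic genes fell in only 15 of 37 with 19 not called, and their median of -0.11 turned to 0.04 under cyclic loess. Pttg1 (1.0 ± 0.039), Mki67 (0.77 ± 0.09) and Tpx2 (0.28 ± 0.072) rose, and Cdc25b (-1.50 ± 0.092) and Cenpa (-1.13 ± 0.055) fell. Among regulators of the first gap phase Cdkn1a, Rbl1 (1.84 ± 0.067), Cdk6 (1.44 ± 0.14) and Ccnd2 (1.25 ± 0.058) rose against Cdkn2c (-1.65 ± 0.088), Rbl2 (-1.42 ± 0.091), Rb1 (-1.20 ± 0.065) and Ccnd1 (-0.87 ± 0.056). The pocket proteins of the RB family and the D cyclins thus each had members in both directions.

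Ribosomal protein genes fell in 35 of 39 cases by small and similar amounts (median -0.30, or -0.15 with 28 falls under cyclic loess), with the elongation factor Eef2 (-0.62 ± 0.047) lowest among them. Their median signal was 13.14 in CON and 12.78 in LPS, near the top of the scale, and some have pseudogenes that a probe set may also read. Ribosome biogenesis had 6 rises and 19 falls of 41, with a median of -0.10 that was 0.07 under cyclic loess. Wdr43 (1.26 ± 0.054) rose most and Heatr1 (-0.80 ± 0.052) fell most. Genes of aminoacyl-tRNA synthetases and ATF4 went from 9 higher and 15 lower of 33 to 10 and 6 under cyclic loess. The cystine importer Slc7a11 was at 4.76, 5.33 and 5.51 in the CON arrays and 9.84, 9.96 and 9.92 in the LPS arrays, which made it the largest rise of that list. Ppp1r15a (1.85 ± 0.059) rose too, while Slc38a2 (-1.08 ± 0.052) and Nars (-1.0 ± 0.036) fell.

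Endoplasmic reticulum chaperones fell in 16 of 30 cases and rose in 7. Their median of -0.24 was -0.08 under cyclic loess and turned to 0.02 with the second-brightest probe set. Eif2ak3, the stress kinase PERK, was lowest at -1.95 ± 0.10 (0.21 in its second probe set), Ero1b (-1.06 ± 0.061) and Dnajb9 (-1.03 ± 0.046) followed, and Ero1a (0.75 ± 0.055) and Syvn1 (0.43 ± 0.058) rose. Of 27 heat shock genes 7 rose and 12 fell, with a median that crossed from -0.07 to 0.06 under cyclic loess. The inducible Hspa1a was at 5.98, 6.00 and 5.99 in the CON arrays and 8.69, 8.51 and 8.44 in the LPS arrays. Its near-identical neighbour Hspa1b (2.21 ± 0.13) rose too, and the 2 may share probes.

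Oxidant defence was divided. In the NRF2 list 10 rose and 18 fell of 34. Sod2, the mitochondrial superoxide dismutase, was at 11.15, 11.21 and 11.25 in the CON arrays and 13.85, 13.76 and 13.71 in the LPS arrays, and Gsr (1.39 ± 0.048), Keap1 (1.10 ± 0.045) and Txnrd1 (0.94 ± 0.058) rose. Both subunits of the glutathione-making ligase, Gclc (-1.0 ± 0.054) and Gclm (-0.88 ± 0.053), fell, with Osgin1 (-1.21 ± 0.094), Mgst2 (-0.93 ± 0.059) and Gpx4 (-0.91 ± 0.043). The superoxide-making oxidase rose in 5 of 8, chiefly in Cybb (1.59 ± 0.068) and Rac2 (1.45 ± 0.056). Metallothioneins Mt2 (3.21 ± 0.056) and Mt1 (0.90 ± 0.045) and the zinc importer Slc39a14 (2.17 ± 0.077) rose.

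In iron handling the exporter fell. Slc40a1, ferroportin, was at 9.90, 9.87 and 9.76 in the CON arrays and 6.34, 5.92 and 6.35 in the LPS arrays. Hfe (-1.98 ± 0.048), Cd163 (-1.35 ± 0.13) and Ncoa4 (-1.19 ± 0.044), the autophagy receptor of ferritin, fell, while the ferroxidase Cp (4.88 ± 0.069), the reductase Steap4 (3.29 ± 0.20), the importer Slc11a2 (2.16 ± 0.057) and Lcn2 (1.93 ± 0.08), which binds bacterial iron carriers, rose. Of 25 genes 9 rose and 11 fell, and the median went from -0.03 to 0.00 under cyclic loess.

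Of 25 genes of acute-phase and secreted defence proteins 12 rose and 8 fell. Cfb, a complement factor of the alternative pathway, was at 4.62, 4.57 and 4.26 in the CON arrays and 10.17, 10.18 and 10.13 in the LPS arrays, and C1ra (1.67 ± 0.079) rose while the C1q chains C1qa (-0.61 ± 0.038), C1qc (-0.38 ± 0.044) and C1qb (-0.11 ± 0.038) fell, the last turning to 0.03 under cyclic loess. Of 19 complement genes 6 rose and 6 fell (7 and 3 under cyclic loess). Saa3, an acute-phase apolipoprotein, was at 9.06, 8.77 and 9.12 in the CON arrays and 14.01, 13.89 and 13.90 in the LPS arrays, and Hp (3.65 ± 0.069), Saa1 (2.60 ± 0.16), Slpi (2.55 ± 0.083) and Ptx3 (2.22 ± 0.092) followed it. Among proteases and clotting genes 16 rose and 12 fell of 33. Mmp13 (5.33 ± 0.084), a collagenase, F10 (3.90 ± 0.062) and Serpinb2 (3.17 ± 0.071) rose, the initiator of clotting F3 (1.69 ± 0.10) rose, and its counterweight Thbd (-1.33 ± 0.083) fell.

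Adhesion molecules rose in 14 of 30 cases, with Vcam1 at 6.47, 6.49 and 6.42 in the CON arrays and 9.72, 9.73 and 9.73 in the LPS arrays, Itga4 (1.97 ± 0.075), a chain of an integrin that binds it, also up, and Itga6 (-2.58 ± 0.047) and Itgb5 down. Among genes of nucleotides and nucleosides the uridine phosphorylase Upp1 (3.88 ± 0.095), Enpp4 (3.65 ± 0.091) and Pnp (2.01 ± 0.053) rose. Entpd1 (-1.46 ± 0.069), which hydrolyses extracellular ATP, fell. Of the actin and membrane genes Marcksl1 (2.85 ± 0.068), Plek (2.51 ± 0.05), Rab20 (2.18 ± 0.053) and Snx10 (2.04 ± 0.056) rose most and Myo1f (-1.54 ± 0.064) fell most, while beta-actin was not called (0.06 for Actb, adjusted p = 0.154), though its second probe set was called lower (-0.44).

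Some of the largest changes lay outside the gene lists. Among the falls these were Rassf3 (-4.20 ± 0.12), the lysosomal carrier Slc46a3 (-3.57 ± 0.17), the phosphatidate phosphatase Lpin1 (-3.55 ± 0.098), Otulinl (-3.54 ± 0.049), Tmem37 (-3.44 ± 0.084), N4bp2l1 (-3.38 ± 0.074), Cd28 (-3.33 ± 0.13), Zdhhc14 (-3.31 ± 0.06), Zfp704 (-3.28 ± 0.14), Depdc7 (-3.26 ± 0.13), Sbk1 (-3.21 ± 0.18), the sialyltransferase St6gal1 (-3.14 ± 0.072), the kinase Mknk2 (-3.08 ± 0.073) and Mxd4 (-3.03 ± 0.073), and among the rises Gm9706 (5.71 ± 0.11). Lpin1 was at 8.47, 8.56 and 8.47 in the CON arrays and 4.95, 4.86 and 5.05 in the LPS arrays, and Depdc7 at 6.30, 6.25 and 6.45 in the CON arrays and 2.71, 3.09 and 3.42 in the LPS arrays. In both the CON arrays were above the LPS arrays without overlap.

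Most of the changes were also called in arrays that share no sample with this comparison. In Silica-LPS against Silica 7104 genes were called (57.3%), and in SPIO-LPS against SPIO 7938 (64.1%). All 651 genes that had risen at least 2-fold rose again after silica and 646 of them after iron oxide. Of the 762 that had fallen at least 2-fold, 762 fell again after silica and 759 after iron oxide. Over all calls 78.3% of the rises and 92.6% of the falls were called the same way after silica, and 81.7% and 91.4% after iron oxide. Opposite calls numbered 1 after silica and 60 after iron oxide.

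The size of the LPS effect differed from that without a particle for 2 genes after silica (0.0161%) and for 1090 after iron oxide (8.80%), by limma's interaction test. The count after silica was 0 without any single CON or LPS array, Silica replicate 2 or 3, or Silica-LPS replicate 1 or 2, and 1 without Silica-LPS replicate 3. Il6 rose by 8.48 after silica and 9.05 after iron oxide, against 8.26 without a particle. For Gpr34 the values were -5.79 and -5.50 against -5.70, and for Rgs2 -4.14 and -3.78 against -3.99. The direction of each of these was the same in all 3 settings.

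**Figure D5:**
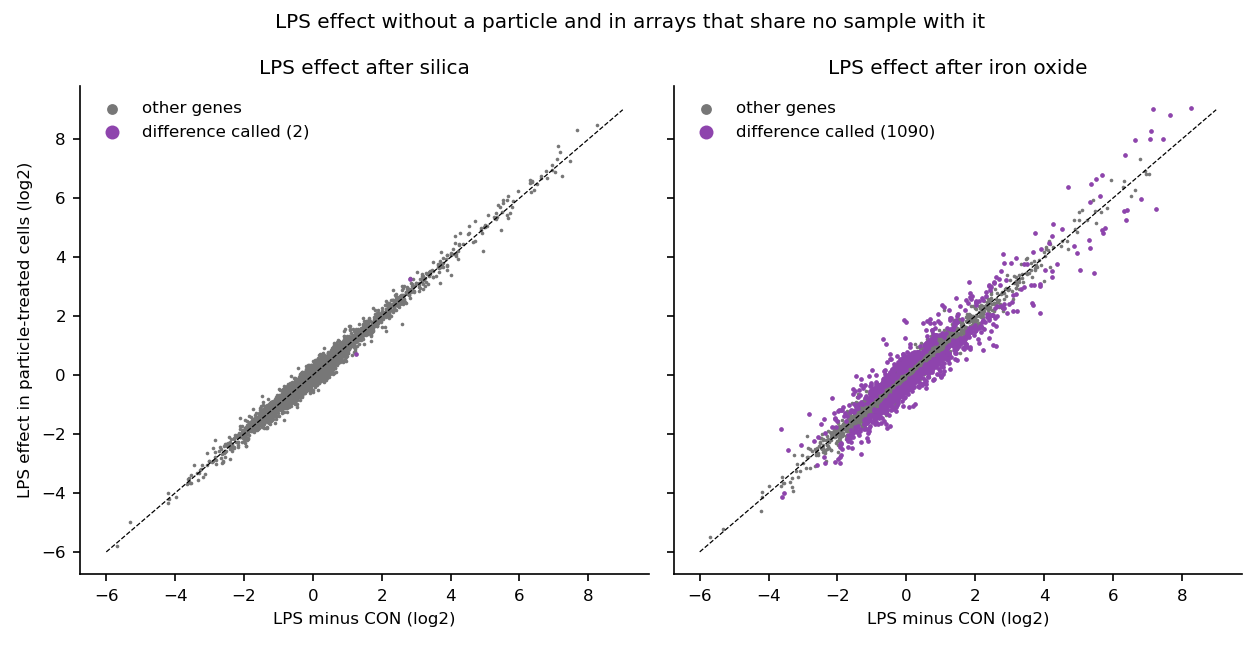
LPS effect after silica (left) and after iron oxide (right) on the vertical axes (log2) against the LPS effect without a particle on the horizontal axes (log2), for 12393 genes in arrays that share no sample, with the line of equality dashed. Genes whose 2 effects were called different are purple, 2 on the left and 1090 on the right, and points of both panels follow the line from Gpr34 at the lower left to Il6 at the upper right.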

How the data were processed

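The deposited values are log2 signals from RMA, per the submitters' processing notes, with its version and settings not stated there. They carry no detection calls, so the number of arrays (3 per group) limits the precision. The median standard error was 0.08 and the median half-width of the 95% interval was 0.17. Of 22626 probe sets besides 64 controls, 20380 had 1 gene symbol in GEO's platform annotation, which can be old, 691 had several and 1555 none. Symbols were updated through RefSeq for 20351, and probe sets with several or no symbols were left out. Among 4956 genes with several probe sets, 227 had probe sets called in both directions.

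In R 4.3.3, limma 3.58.1 (lmFit, contrasts.fit, eBayes) was given all 18 arrays with 1 coefficient for each of 6 groups. P-values were adjusted by the Benjamini-Hochberg method over all genes of a contrast, with a threshold of 0.05. On simulated data for this comparison (12393 genes) 67, 67 and 66 genes were changed by 0.25, 0.5 and 1. Of these 44.8%, 86.6% and 98.5% were recovered, with 9 false calls. Far fewer genes were changed there than were called in the real arrays, so these shares may not carry over. The comparison, gene lists and markers were chosen with earlier results of these data known, so lists are described by counts and medians without a test. Named genes were drawn from the 30 largest changes in each direction, the lists and the markers. From a list they were drawn from the 5 largest changes in each direction, members moving against it, up to 3 not called, and members of short lists. Not every gene that met these rules is in the text, so the largest changes of a list may be missing from it. Arg2, Bach2, Casp1, Cd86, Cebpb, Cebpg, Gclm, Ido1, Ifi27l2a, Ifitm2, Ifnb1, Il10, Il12a, Il15, Il1rn, Il23a, Ltc4s, Ly96, Mir155hg, Nfkb2, Nfkbia, Nfkbib, Nfkbie, Plpp3, Ptger4, Rela, Relb, Tbxas1, Tfeb and Tnfaip3 were named after their values were seen. Alternatives were a replicate block, only the arrays compared, a variance trend with robust prior, no genes from the dimmest part of the scale, the mean or second-brightest probe set, cyclic loess, array weights and each array left out.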

Additional observations from a re-analysis of the deposited data

Results flagged for a closer look

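The LPS effect differed between cells with and without a particle by limma's interaction test, at an adjusted p below 0.05, for 2 genes after silica and for 1090 after iron oxide. Those after silica were Ccnd2, which rose by 1.25 without a particle and by 0.70 after silica, and the phospholipid phosphatase gene Plpp3, which rose by 2.83 and 3.26 (adjusted p = 0.0452 for both differences). After iron oxide 20 of the 423 genes named in the text differed at least 2-fold. Over all 12393 genes this difference was called at least 2-fold upwards for 37 and downwards for 29. The named genes were chosen largely by the size of their LPS change, so their count is not a result about them. As a log2 difference of the LPS effect, it was lower after iron oxide in Il10 (-2.0), Pfkfb3 (-1.78), Dusp2 (-1.47), Irf8 (-1.24), Socs6 (-1.21), Gadd45a (-1.21), Hp (-1.20), Ch25h (-1.11), Mt2 (-1.04) and Mmp13 (-1.01). It was higher in Cxcl1 (1.85), Slc40a1 (1.82), Tent5c (1.39), Il1b (1.36), Il12a (1.24), Gclc (1.17), Mx1 (1.16), Cxcl10 (1.16), Cx3cr1 (1.16) and Oasl1 (1.12). For Slc40a1, Tent5c, Gclc and Cx3cr1, which fell without a particle, the LPS effect went from -3.64, -2.16, -1.0 and -1.31 to -1.82, -0.76, 0.17 and -0.15. Among the genes with a lower effect, Socs6 had already fallen without a particle, so its fall was larger after iron oxide. The rise of Irf8 without a particle was smaller than its difference, so its LPS effect after iron oxide was downwards.

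Probe sets that the comparison left out also changed. Of 691 probe sets with several gene symbols 63 were called with at least a 2-fold change, 42 higher and 21 lower, and of 1555 with no symbol 118 were, 63 higher and 55 lower. The share called was 60.9% and 41.5%, against 55.3% of the probe sets with 1 symbol.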

How the results depend on the processing

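With each array left out in turn, the count of genes called was 6679 to 7048, that of rises 2426 to 2734 and of falls 4218 to 4441, and the LPS effect after iron oxide differed for 885 to 1089 genes. The count after iron oxide was 824 with the second-brightest probe set and 1376 with a variance trend and robust prior, and that of all genes called was 6422 with the second-brightest probe set. The count of genes that differed after silica moved to 0 with a replicate block, with only the arrays compared or with the second-brightest probe set, 1 with the mean of probe sets or cyclic loess, 5 without the dimmest genes, 40 with a variance trend and robust prior, and 0 to 2 with an array left out. With the replicate block 7149 genes were called, and none of the named genes changed direction or call. Deviations of LPS and CON arrays of the same number correlated at 0.057, -0.047 and 0.118, and LPS replicate 2 correlated best with CON replicate 1, so the numbers are not taken to pair the arrays. Some named genes turned. With the second-brightest probe set the difference was 0.12 for Acta2, 0.51 for Casp9, 0.21 for Eif2ak3, 0.24 for Mef2d, 0.046 for Per3, 0.42 for Socs5 and 0.11 for Trem2. Under cyclic loess it was 0.033 for C1qb and 0.013 for Lyz2. Of 423 named genes 20 lost and 8 gained their call with the second-brightest probe set and 3 and 8 under cyclic loess, and none turned under the other alternatives. The cause was not tested. The dimmest genes, the 3 arrays of a group and a scale that ends near 2.4 and 14.52 limit what small changes can show.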
